A study of Homo sapiens with 6 samples.

Results

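The genes described are 27 that encode proteins of the small (40S) ribosomal subunit. They were chosen by name, from the RPS gene family together with RPSA and FAU, and were found by NCBI Gene identifier among the 25702 identifiers that each count table lists. RNA was profiled in K562, an established human line from chronic myeloid leukaemia with erythroid features, after nucleofection of a pCMV-HA plasmid. The plasmid was empty in the control group (EV), carried wild-type MXD3 in the second group, and carried the leukaemia fusion STIM1::MXD3 in the third. Each group had 2 libraries from separate transfections, 6 in all, and the labels give no drug or other treatment. Expression was transient and driven by a viral promoter, and the methods describe no selection of transfected cells before RNA was taken. MXD3 opposes MYC by repressing genes that carry the E-box sequence CACGTG, and the fusion keeps its DNA-binding part but lacks its repression domain. The study set each construct against EV, and the comparison of the constructs with each other was added here.

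The small subunit binds the mRNA and decodes it, and is built around one ribosomal RNA. Its proteins are needed in equal numbers, and each is made from an mRNA of the TOP class, which starts with a run of pyrimidines through which translation is controlled by nutrient signals. MYC is a known activator of ribosomal protein genes, and losing 1 copy of several of them causes Diamond-Blackfan anaemia, in which erythroid precursors fail.

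The TOP feature and the E-box were looked for in RefSeq promoter sequences (build GRCh38.p14), which held 24 of the 27 genes. RPS2, RPS15A and RPS20 were not matched. The first 7 sequences shown are 30-base windows centred on the annotated transcription start, 5′ to 3′ on the gene's strand, and the capitals mark the longest run of C and T. They show the longest runs, FAU and RPS24, the S6 kinase substrate RPS6, the blood disease genes RPS14, RPS10 and RPS19, and the shortest run, RPS29.
RPS24 (chr10:78033848-78033877, plus strand): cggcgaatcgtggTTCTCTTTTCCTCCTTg
FAU (chr11:65122120-65122149, minus strand): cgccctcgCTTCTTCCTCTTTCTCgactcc
RPS6 (chr9:19380222-19380251, minus strand): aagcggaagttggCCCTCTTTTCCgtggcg
RPS14 (chr5:150449725-150449754, minus strand): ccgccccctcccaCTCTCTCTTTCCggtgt
RPS10 (chr6:34426055-34426084, minus strand): ccgcgcatgCTCCTTCCTTTCCagccccgg
RPS19 (chr19:41860240-41860269, plus strand): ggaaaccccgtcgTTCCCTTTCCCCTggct
RPS29 (chr14:49598696-49598725, minus strand): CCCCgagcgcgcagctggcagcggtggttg

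Over the 24 genes the longest pyrimidine run in this window had a median of 11 bases and ran from 4 bases in RPS29 to 16 in FAU and RPS24. The median over 27305 promoters of the same table was 4 bases. A run of at least 5 bases was found in 23 of the 24 genes (95.8%), against 49.2% of all promoters. The run was taken anywhere in the window and need not lie at the start. Relative to the start, it began at 8 in RPS15, at 10 in RPS27A and at -15 in RPS29. In the longer window of 300 bases, from 250 before the start to 50 after it, CACGTG occurred in 1 of the 24 genes (4.17%), against 7.43% of all promoters. That gene was RPS28, a head protein near the mRNA exit, and its E-box is shown in capitals because it was the only match, in a window of the same length that is centred on the E-box and not on the start.
RPS28 (chr19:8321478-8321507, plus strand): ctctccccgaagCACGTGactcctctccgc

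The ETS-type motif CCGGAAG, read on either strand as was CACGTG, occurred in 8 of the 24 genes (33.3%), against 10.7% of all promoters. These matches describe letters in the sequence only, and no binding was measured.

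The libraries held 53048343 to 63835779 counts, and 15431 genes had enough counts to be tested, among them all 27 small-subunit genes. Levels are given as counts-per-million (CPM) after TMM scaling of the library totals, and log2 fold changes are differences of fitted log2 levels with their standard error (SE). The labels were checked on MXD3, which stood at 9.33 and 11.7 CPM in EV, 2524 and 2162 CPM with MXD3, and 1975 and 1849 CPM with STIM1::MXD3. STIM1 stood at 471 and 453 CPM with the fusion and at 159 to 205 CPM in the other 4 libraries. The 8 erythroid and K562 markers used (among them HBE1 and GATA1) each exceeded 5 CPM in every library, with a summed level of 6867 to 8847 CPM. Summed levels of markers of other cells ran from 13.3 to 20.8 CPM for T cells, 1.17 to 1.90 CPM for B cells, 22.2 to 27.6 CPM for granulocytes or monocytes, and 82.3 to 99.5 CPM for fibroblasts or epithelium. Mitochondrial genes held 1.45% to 3.73% of counts, a share that followed neither the groups nor the replicate numbers, and its part in the results was not tested. In bulk RNA, fewer transfected cells and less RNA per cell cannot be told apart.

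Together the 27 genes held 2.34% and 2.56% of all counts in EV, 2.01% and 2.26% with MXD3, and 2.41% and 2.54% with STIM1::MXD3. Both MXD3 libraries lay below the other 4 libraries. Levels were also divided by the length of the coding sequence. This leaves out the untranslated parts of the mRNAs, so different genes can be compared only roughly. Per kilobase of coding sequence, 25 of the 27 genes had mean levels between 508 and 2981 CPM per kb. This was a 5.86-fold range with a median of 1872 CPM per kb. The highest were RPS12, a head protein (2981 CPM per kb), RPS24, a body protein (2866 CPM per kb), and RPS2, which lines the mRNA entry channel (2845 CPM per kb). The lowest of the 25 were RPS26 at the mRNA exit (508 CPM per kb), FAU, whose product is cut from a ubiquitin-like protein (816 CPM per kb), and RPS29, a small zinc-binding protein of the head (907 CPM per kb).

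**Figure D1:**
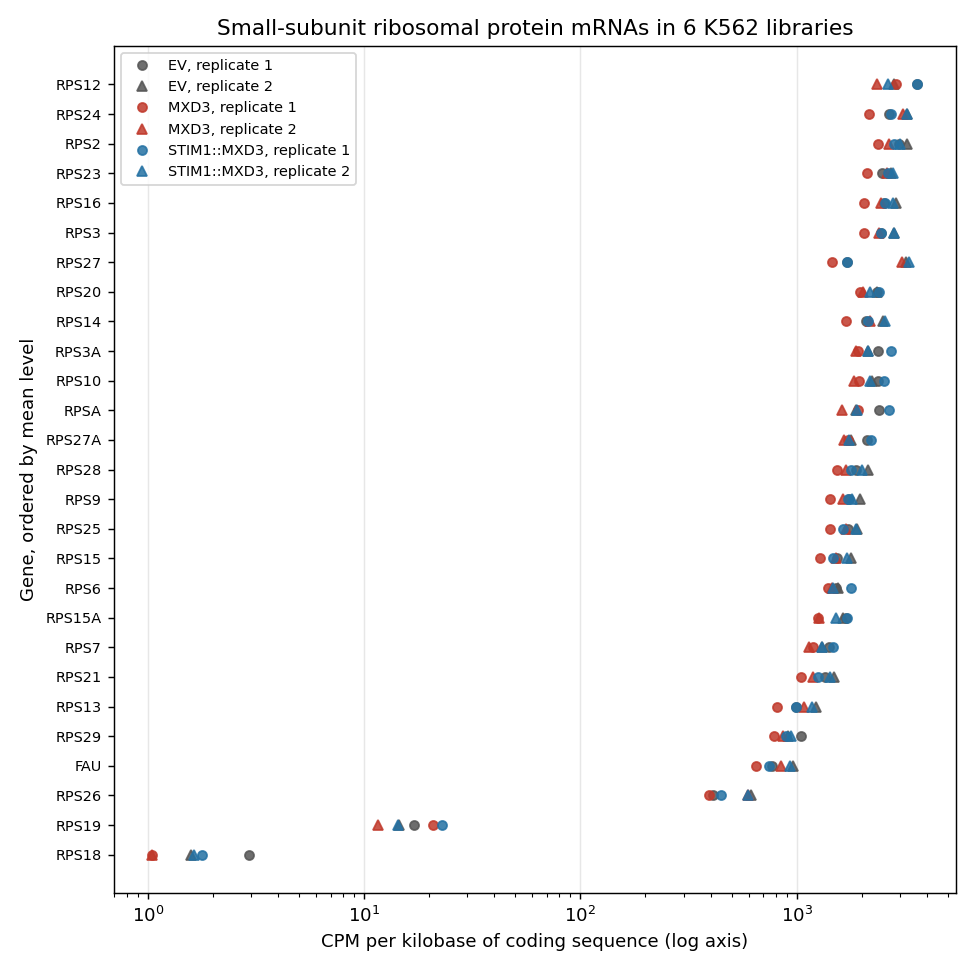
CPM per kilobase of coding sequence (horizontal log axis) of the 27 genes (vertical axis, ordered by mean level) in each of the 6 libraries; colour gives the plasmid group and shape the replicate number. All genes but RPS18 and RPS19 lie in one band from 508 to 2981 CPM per kb on average, and in most of them the red MXD3 symbols stand to the left of the symbol of the same shape in the other groups.

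RPS18 and RPS19 stood far below this band in every library. RPS18, which contacts the large subunit from the head, had 69 and 44 counts in EV, 31 and 27 with MXD3, and 45 and 47 with STIM1::MXD3. RPS19, the gene most often mutated in Diamond-Blackfan anaemia, had 380 and 384 counts in EV, 584 and 286 with MXD3, and 553 and 397 with STIM1::MXD3. The other 25 genes had 7235 to 172161 counts per library. On the per-kilobase scale the median of the 25 was 1117-fold the level of RPS18 and 111-fold that of RPS19. The values of these rows are given as counted, and whether they reflect the levels of the mRNAs was not tested.

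Genes near RPS18 were low too. RPS18 lies at GRCh37 chr6:33239852-33244288, and the 13 other genes within 100000 bases on either side had a median of 1.33 counts, with a highest mean of 86.8 counts for VPS52. In the 5 consecutive megabases of chromosome 6 from 29 to 33 the median count per gene was between 0 and 2.67, while in the next megabase, at 34, it was 4700. RPS10, in that next megabase at chr6:34385231-34393846, had 51430 to 68982 counts. Near RPS19, at chr19:42364325-42376993, the 7 other genes had a median of 28.7 counts, but ARHGEF1 had 7182. How reads that fit several places were counted is not given in the sources used here, and its part in these low rows was not tested.

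With MXD3, most small-subunit mRNAs had lower levels than in EV, though no single gene passed the test. Of the 27 genes, 26 had a negative log2 fold change, with a median of -0.24 (-15.6%) against 0.00 over all genes tested. Without RPS18 and RPS19 the changes ran from -0.39 to -0.05, with an SD of 0.07 between genes. In both same-numbered pairs of libraries 26 genes were lower with MXD3, where 31.5% of all genes tested were lower in both. In 17 genes both MXD3 libraries lay below both EV libraries, where the background was 14.8%. The median was -0.30 between the replicate 1 libraries and -0.22 between the replicate 2 libraries. Leaving out MXD3 replicate 2 took the median of the fit to -0.39, and leaving out MXD3 replicate 1 to -0.17. These fits had no term for the replicate number, so the groups then differed in replicate numbers too.

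With Benjamini-Hochberg adjusted p-values from edgeR's quasi-likelihood test, 0 of the 27 were called (smallest adjusted p = 0.999), beside 0% of all genes called lower. At an unadjusted p under 0.05, 2 genes (RPS15A and RPS21) were lower, where 0.907% of all genes were. With the replicate number as a block edgeR again called 0 genes, where 0.188% of all genes were called lower, and 21 had an unadjusted p under 0.05 where 6.99% of all genes were lower at that level. DESeq2 called 0 genes without the block (0.00648% of all genes were lower). With the block it called 7 genes lower, where 0.985% of all genes were called lower. These were RPS15A, RPS21, RPS28, RPS2, RPS12, RPS10 and RPS9.

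**Figure D2:**
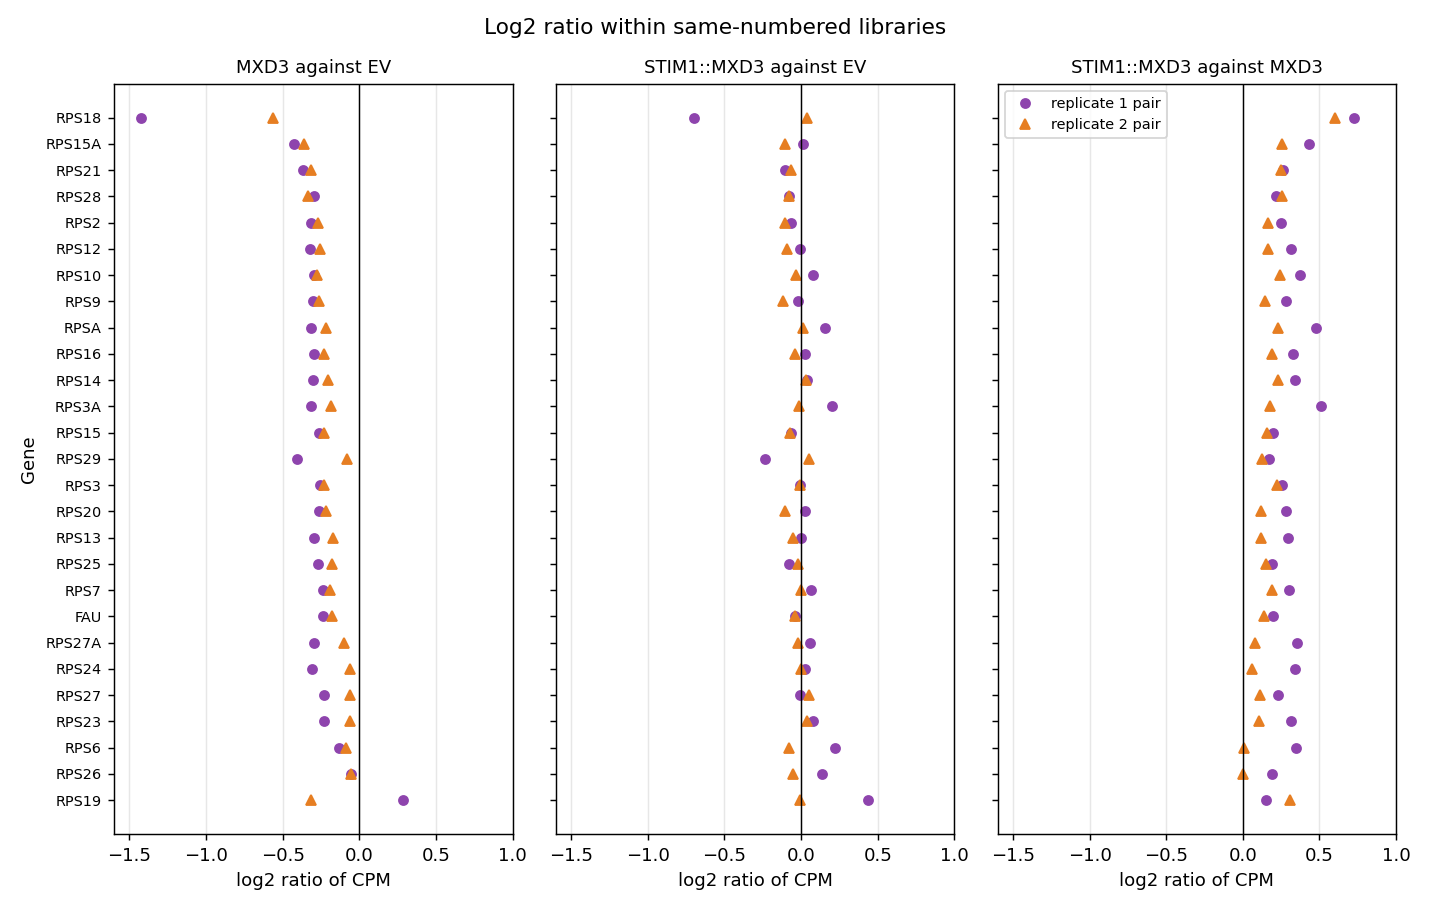
Log2 ratio of CPM (horizontal axis) for each of the 27 genes (vertical axis) in the 3 comparisons (panels), with a circle for the replicate 1 libraries and a triangle for the replicate 2 libraries. In the left panel 26 genes lie left of 0 in both pairs, in the middle panel symbols fall on both sides of 0, and in the right panel all 27 lie right of 0. The left and right panels share the MXD3 libraries.

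In the body of the subunit, RPS15A, a conserved protein that binds the ribosomal RNA, had the most negative change of the abundant genes. It stood at 663 and 642 CPM in EV and at 494 and 500.0 CPM with MXD3, so the groups were well apart. Its log2 fold change was -0.39 ± 0.12 (SE), or -23.8% (adjusted p = 0.999 in edgeR, 0.0589 with the block and 0.00171 in DESeq2 with the block). RPS21, a eukaryote-specific protein of the body, had 339.7 and 375 CPM in EV and 264 and 301 CPM with MXD3. These groups did not overlap either, and the log2 fold change was -0.34 ± 0.14.

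RPS14, whose loss of 1 copy underlies the anaemia of the 5q deletion syndrome, had 952 and 1148 CPM in EV and 773 and 998 CPM with MXD3. Its groups overlapped and replicate 2 was the higher library in both, and within each pair MXD3 was lower (log2 ratios -0.30 and -0.20). RPS6, the substrate of S6 kinases, had one of the smallest differences, at 1146 and 1166 CPM in EV and 1047 and 1098 CPM with MXD3, with a log2 fold change of -0.11 ± 0.13. FAU had 308 and 385 CPM in EV and 261 and 339.8 CPM with MXD3 (-0.20 ± 0.19). RPS26 had 142 and 214 CPM in EV and 137 and 206 CPM with MXD3, overlapping groups with a log2 fold change of -0.05 ± 0.27. Over the 15 body genes the median was -0.23, and all 15 were lower in both pairs.

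In the head, RPS28 had 397 and 448 CPM in EV and 323 and 355 CPM with MXD3, which did not overlap. Its log2 fold change was -0.32 ± 0.13. RPS10, a Diamond-Blackfan gene whose product sits near the mRNA entry, had 1189.9 and 1106 CPM in EV and 971 and 916 CPM with MXD3 (-0.28 ± 0.13). RPS3, which holds the mRNA entry channel, had 1802 and 2072 CPM in EV and 1506 and 1767 CPM with MXD3 (-0.24 ± 0.15). Both genes were lower in both MXD3 libraries than in either EV library. RPS27A, made as a fusion with ubiquitin, had 995 and 838 CPM in EV and 811 and 781 CPM with MXD3, again without overlap (-0.20 ± 0.16).

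The rows with few counts did not share one direction. RPS19 stood at 7.46 and 6.34 CPM in EV and at 9.09 and 5.09 CPM with MXD3. It was higher in the replicate 1 pair and lower in the replicate 2 pair, with a log2 fold change of 0.04 ± 0.34 that was -0.01 with the replicate block. RPS18 had 1.35 and 0.727 CPM in EV and 0.483 and 0.481 CPM with MXD3. Its log2 fold change of -1.10 ± 0.47 rested on 27 to 69 counts per library. Over the 12 head genes the median was -0.25, close to that of the body, and the 13 universal proteins (-0.25) and 14 eukaryote-type proteins (-0.21) had medians of like size. The 8 genes listed here for Diamond-Blackfan anaemia had a median of -0.19. That list may be incomplete and does not hold RPS15A (-0.39). The differences between these groups of genes were not tested.

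With STIM1::MXD3, the same mRNAs stood near their EV levels. Of the 27 genes 12 were higher and 15 lower, the median change was -0.01 on the log2 scale, and without RPS18 and RPS19 the changes ran from -0.10 to 0.10. In 10 genes the fusion was lower in both pairs and in 4 it was higher, where 25.1% and 27.1% of all genes were. In 0 genes did the groups not overlap, against 10% of all genes lower and 12% higher. By edgeR 0 genes were called, beside 0% of all genes called lower and 0.00648% called higher. At an unadjusted p under 0.05 there were also 0, where 0.544% of all genes were lower and 0.408% higher. With the block edgeR called 0 genes (background 0.00648% lower and 0.013% higher), and 0 had an unadjusted p under 0.05 (background 4.73% and 3.77%). DESeq2 called 0 genes without the block (0.00648% and 0.013%) and 0 with it (0.136% and 0.0518%). The comparison shares its EV libraries with that of MXD3 against EV.

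Single genes showed the same absence of a common direction. RPS15A, the abundant gene with the most negative change with MXD3, had 668 and 598 CPM with the fusion, beside 663 and 642 CPM in EV (-0.04 ± 0.12). RPS10 had 1259 and 1082 CPM with the fusion (0.03 ± 0.13) and RPS3 had 1797 and 2064 CPM (-0.0049 ± 0.15). In both, each fusion library lay close to the EV library of its number. RPS3A, a protein of the platform, had the highest positive change of the abundant genes, at 2175 and 1691 CPM beside 1894 and 1705 CPM in EV (0.10 ± 0.15). RPS29 had the most negative one, at 152 and 161 CPM beside 179 and 156 CPM (-0.10 ± 0.13). In both genes the groups overlapped and the pairs moved opposite ways.

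The same held for the genes with known roles in disease or signalling. RPS14 had 979 and 1172 CPM with the fusion (0.03 ± 0.18) and RPS6 had 1333 and 1103 CPM (0.08 ± 0.13). RPS27A had 1038 and 826 CPM (0.02 ± 0.16), FAU 299 and 375 CPM (-0.04 ± 0.19) and RPS26 156 and 206 CPM (0.02 ± 0.27). For RPS6 the replicate 1 libraries gave an increase and the replicate 2 libraries a decrease. RPS19 had 10.1 and 6.31 CPM (0.25 ± 0.34) and RPS18 had 0.821 and 0.747 CPM (-0.40 ± 0.46), both with few counts. None of these differences exceeded the spread between libraries.

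Set against MXD3 directly, STIM1::MXD3 had higher levels of all 27 genes. The median log2 fold change was 0.21 (15.5%), against 0.01 over all genes, and without RPS18 and RPS19 it ran from 0.08 to 0.37. All 27 were higher in both pairs, where 27.5% of all genes were, and in 16 the groups did not overlap, where 10.9% did. The pair medians were 0.29 for replicate 1 and 0.17 for replicate 2. Dropping MXD3 replicate 2 gave a median of 0.33, and dropping MXD3 replicate 1 gave 0.12, again without a term for the replicate number. This comparison uses the same MXD3 libraries as that against EV, so its direction is not a separate observation of low levels in them.

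By edgeR 0 of the 27 genes were called between the constructs, beside 0% of all genes called higher. At an unadjusted p under 0.05, 2 genes (RPS15A and RPS10) were higher, where 0.505% of all genes were. With the block edgeR called 0 genes (smallest adjusted p = 0.480), beside 0.00648% of all genes called higher, and 20 had an unadjusted p under 0.05, where 3.21% of all genes were higher at that level. DESeq2 called 0 genes without the block, where 0.00648% of all genes were called higher, and 5 with it, where 0.0713% were. These were RPS15A, RPSA, RPS10, RPS3A and RPS14.

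Among the body genes, RPSA, the laminin receptor precursor that sits at the mRNA exit, had 1713 and 1434 CPM with MXD3 and 2383 and 1679.9 CPM with the fusion. Its groups overlapped, with a log2 fold change of 0.37 ± 0.21 that was the largest of the abundant genes (adjusted p = 1.00 in edgeR and 0.0192 in DESeq2 with the block). RPS3A had 1524 and 1497 CPM with MXD3 and 2175 and 1691 CPM with the fusion (0.36 ± 0.15), and both fusion values of RPS15A lay above both of its MXD3 values (0.35 ± 0.12). The lone values behind RPS3A differed in size, with log2 ratios of 0.51 in the first pair and 0.18 in the second. RPS14 differed by 0.28 ± 0.18, RPS6 by 0.18 ± 0.13, FAU by 0.17 ± 0.19 and RPS26 by 0.08 ± 0.27.

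Among the head genes, RPS10 showed the smallest p, with both fusion libraries (1259 and 1082 CPM) above both MXD3 libraries (971 and 916 CPM) and a log2 fold change of 0.31 ± 0.13. RPS3 was higher by 0.24 ± 0.15 and RPS27A by 0.23 ± 0.16, and RPS29 by 0.15 ± 0.13, each without overlap. RPS19 differed by 0.21 ± 0.34 and RPS18 by 0.70 ± 0.47, at few counts. The medians were 0.23 in the head and 0.21 in the body.

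Among the 25 abundant genes, the difference farthest from 0 was between replicate numbers (0.98 for RPS27) and not between plasmids (-0.39 for RPS15A with MXD3). In one edgeR fit with the groups and the replicate number, 14 of the 27 genes differed between replicate 2 and replicate 1 over the 3 groups. Of these 10 were higher in replicate 2, where 13.1% of all genes were called higher, and 4 were lower, where 16.1% were called lower. DESeq2 called 12 higher and 4 lower, where 12.5% and 15.4% of all genes were. The median over the 27 genes was 0.15, against 0.01 over all genes, and it was -0.04 with offsets for coding length and GC content.

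RPS27, a zinc-binding protein of the body, had 437, 372 and 436 CPM in the replicate 1 libraries of EV, MXD3 and STIM1::MXD3 and 816, 782 and 845 CPM in the replicate 2 libraries. The 3 values of one number were far from the 3 of the other, with a fitted difference of 0.98 ± 0.07 on the log2 scale, or 1.97-fold (adjusted p = 8.21e-07, edgeR). RPS27L, its near copy elsewhere in the genome, has its own row at 35.4 to 49.7 CPM and differed by 0.26. RPS26 was next, at 142, 137 and 156 CPM against 214, 206 and 206 CPM (0.53 ± 0.07, adjusted p = 5.96e-05, edgeR). RPS24, FAU, RPS13 and RPS14 followed with 0.35, 0.34, 0.33 and 0.30.

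In the other direction, RPS19 was lower in replicate 2 by -0.58 ± 0.15 (adjusted p = 0.00883, edgeR). RPSA had 2135, 1713 and 2383 CPM in replicate 1 and 1666, 1434 and 1679.9 CPM in replicate 2, with a difference of -0.37 ± 0.07 (adjusted p = 7.82e-04, edgeR). RPS12 differed by -0.37 and RPS27A by -0.21. Genes of one subunit thus differed in opposite directions between the replicate numbers, while between MXD3 and EV the 25 abundant ones had one sign. Across the 25 abundant genes the replicate difference had r = -0.41 with coding length and r = 0.14 with GC content, and the MXD3 change had r = -0.03 and r = -0.40. These correlations are over genes, which share libraries and are not independent replicates.

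**Figure D3:**
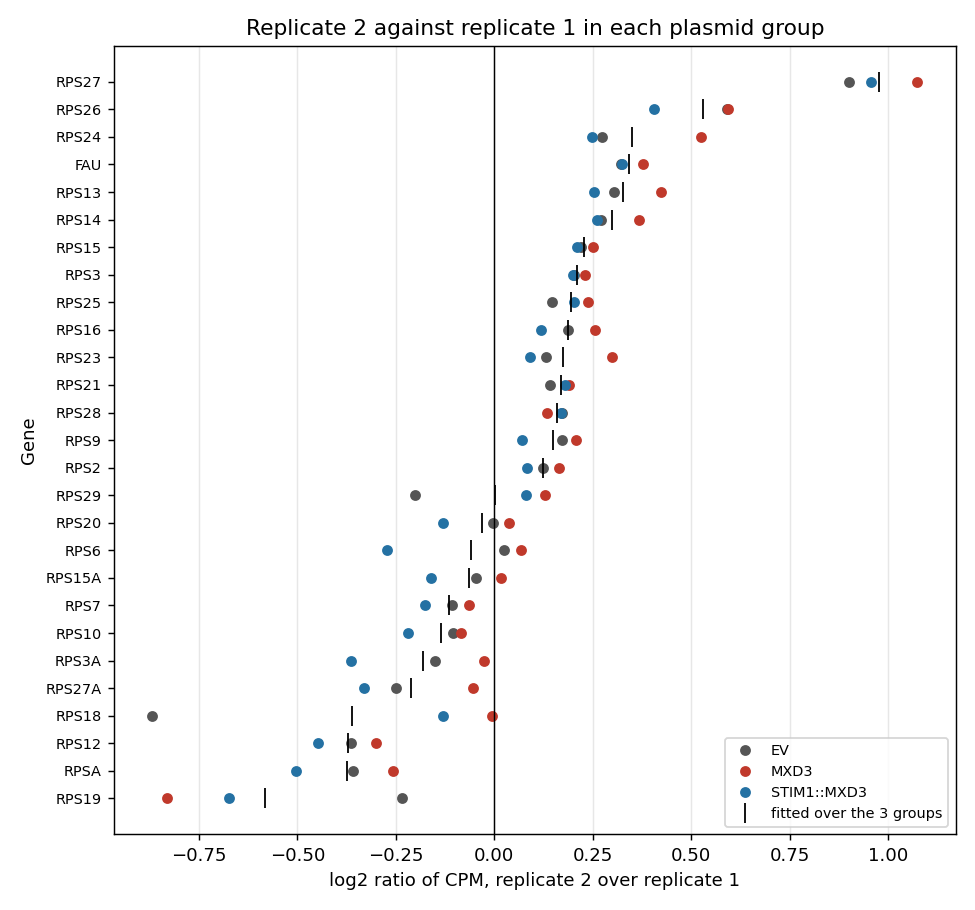
Log2 ratio of CPM of replicate 2 over replicate 1 (horizontal axis) for the 27 genes (vertical axis) in each plasmid group (coloured points), with the fitted value over the 3 groups as a vertical bar. RPS27 lies near 0.98 in all 3 groups, and the fitted values of RPSA and RPS12 lie near -0.37. The points of RPS27 stand apart from those of every other gene, while the points of many other genes interleave.

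Genes around the family were compared from lists of related genes. Of the 6 further 40S proteins listed, all 6 were lower with MXD3, with a median of -0.25; RACK1, a signalling scaffold on the head, differed by -0.29 ± 0.14. All 47 large-subunit proteins were lower with MXD3 (median -0.24) and higher with the fusion than with MXD3 (median 0.24), and against EV the fusion left them at a median of 0.01. RPL27 showed the smallest p of them in both comparisons with MXD3 libraries, at -0.32 ± 0.12 and 0.32 ± 0.12. In edgeR, with or without the block, 0 of these genes were called in the 3 comparisons. At an unadjusted p under 0.05, 4 large-subunit genes were lower with MXD3 and 3 were higher with the fusion than with MXD3, where 0.907% and 0.505% of all genes were.

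Other mRNAs of the TOP class, 18 genes of translation factors and RNA-binding proteins among others, had medians of -0.15 with MXD3, 0.03 with the fusion and 0.17 between the constructs. EEF1G, a subunit of elongation factor 1, had the smallest p with MXD3 (-0.29 ± 0.12). In contrast to these lists, 33 factors that assemble the 40S subunit had medians of 0.06 with MXD3 and 0.12 with the fusion, both against EV. Between the constructs their median was 0.02. Of the 33, 23 were higher with MXD3 and 28 with the fusion, where 7742 and 8046 of all 15431 genes were. The 28 tested proteins of the mitochondrial small subunit had medians of -0.03, 0.05 and 0.10 in the 3 comparisons. By edgeR 0 genes of these 3 lists were called, where at most 0.00648% of all genes were in either direction. At an unadjusted p under 0.05 there was 1, EEF1G, which was lower with MXD3. At that level 0.907% of all genes were lower with MXD3 and 0.953% higher. The differences between lists were not tested.

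**Figure D4:**
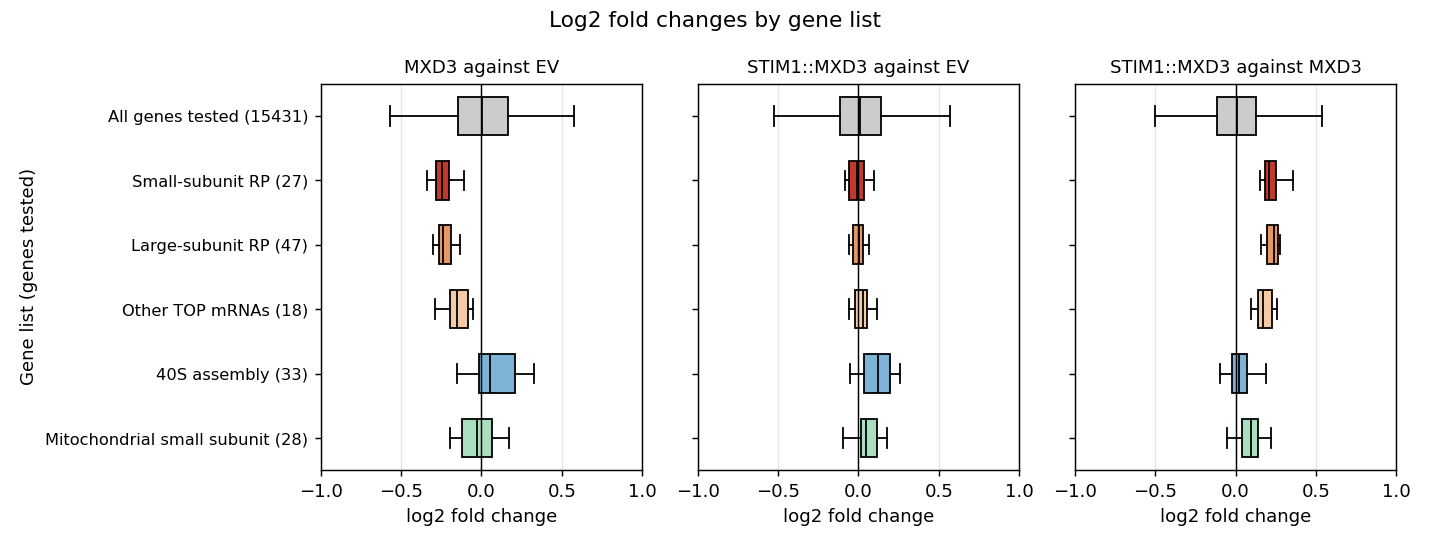
Log2 fold changes (horizontal axis) of all 15431 genes tested and of 5 gene lists (vertical axis) in the 3 comparisons (panels); boxes span the quartiles with the median as a line and whiskers reach the 5th and 95th percentiles. The boxes of small-subunit and large-subunit proteins lie left of 0 with MXD3 (medians -0.24 and -0.24), around 0 with the fusion, and right of 0 between the constructs, while the 40S assembly box does not (0.06 with MXD3).

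Some counts may hold reads of other genes. In the GRCh37 annotation the exons of RPS3A, RPS23, RPS25 and RPS28 overlap those of SH3D19, ATG10, CENATAC and KANK3 on the opposite strand by 209, 232, 42 and 365 bases, and FAU overlaps SYVN1 on the same strand by 87 bases. The use of strand in counting is not given in the sources used here, so such genes are uncertain. Rows of numbered processed copies of the 27 genes held at most 169 counts in a library (RPSAP9). RPSA2, a second RPSA-type gene with its own row, had a mean of 98.8 CPM.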

How the data were processed

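Poly A RNA of K562 cells was sequenced by the authors, who deposited raw counts per gene for each library under NCBI Gene identifiers. The submitters' processing notes name HISAT2 2.2.1, featureCounts 2.0.1 and the build hg19, and the annotation, the use of strand, the unit counted (reads or read pairs) and the handling of multiply placed reads are not given in the sources used here. Among values of 1 to 39 counts, 59.8% to 67.3% were even. Of 25702 identifiers, 23696 were matched to symbols, and unmatched ones held 0.225% to 0.276% of counts and stayed in library sizes.

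Groups and replicate numbers came from the labels. Genes were kept with filterByExpr, scaled by TMM and tested with the two-sided quasi-likelihood F test of edgeR 4.0.16 (R 4.3.3) in 1 fit of 6 libraries, with Benjamini-Hochberg adjustment over 15431 genes and a threshold of 0.05. DESeq2 1.42.0, a replicate block, other scalings and filters, offsets for coding length and GC content (mgcv 1.9.3), halved counts and leaving out each library were alternatives. The edgeR tests were checked on simulated counts that held the replicate differences of these libraries. Of 100 genes changed by 1 on the log2 scale, 19% were called without the block and 70% with it. Of 100 genes changed by 2, 64% were called without the block and 91% with it. False calls numbered 0 without the block and 27 with it. With the block, false calls were thus a larger share of all calls than the threshold of 0.05 sets. Smaller changes, like those of the abundant small-subunit genes, were not simulated. With 2 libraries per group, p-values measure only the spread between these libraries.

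Subtracting group means left deviations that correlated between libraries of one number over all genes (r = 0.270, 0.364 and 0.450 for EV with MXD3, EV with STIM1::MXD3 and MXD3 with STIM1::MXD3), so the numbers were taken to pair the libraries. This pairing comes from the counts, since the labels give no shared day or culture.

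The genes and lists were chosen with earlier results of these data known. Values were given in full, per comparison, for the 3 genes with the smallest p, the 2 largest and 2 smallest changes, and RPS19, RPS14, RPS6, RPS27A, FAU, RPS10, RPS26 and RPS3. Outside the family at most 2 genes per list were named, by smallest p. VPS52, ARHGEF1, RPSAP9 and RPSA2 were named after their values were seen. One marker gene of the K562 list is not reported here and was left out of its sum.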

Additional observations from a re-analysis of the deposited data

How the results depend on the processing

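With the replicate block the medians over the 27 genes were -0.24 with MXD3, -0.01 with STIM1::MXD3 (both against EV) and 0.22 between the constructs, and the block changed no call of a single gene between plasmids in edgeR. DESeq2 with the block called 7 genes for MXD3 against EV and 5 between the constructs, where edgeR and DESeq2 without it called 0; the cause was not tested. With offsets for coding length and GC content the median of replicate 2 against replicate 1 became -0.043. Leaving out 1 library, the medians ran from -0.39 to -0.17 for MXD3 against EV and from -0.12 to 0.027 for the fusion against EV. Between the constructs they ran from 0.12 to 0.33. These fits between plasmids had no replicate block, so with 1 library left out the replicate numbers were unequal between groups. Between the replicate numbers the median then ran from 0.12 to 0.17 and the number of genes called from 9 to 15. It was 9 without EV replicate 1, EV replicate 2 or MXD3 replicate 1.

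Between plasmids edgeR called 0 of the 27 genes, with or without the block, so no turn of direction could concern a called gene. Leaving out 1 library, without the replicate block, turned the sign of 5 of the 27 genes for MXD3 against EV. It turned 26 for the fusion against EV and 6 between the constructs. These turns hold differences between replicate numbers as well as between plasmids. Within both same-numbered pairs 26 genes were lower with MXD3 than in EV, and 27 were higher with the fusion than with MXD3. The values follow for genes given in full in the report and for some others. RPS19 with MXD3 was -0.015 with the replicate block and -0.020 in DESeq2 with the block. For the fusion against EV, the offsets gave RPS14 -0.0015 and RPS27A -0.034, or -0.0012 and -0.034 with the block, and RPS7 -0.0082 and RPS24 -0.026, and total counts only gave RPS3 0.0074. Leaving out 1 library, the values for MXD3 against EV ran from -0.42 to 0.39 in RPS19, -0.39 to 0.27 in RPS26, -0.77 to 0.40 in RPS27, -0.46 to 0.084 in RPS24 and -0.31 to 0.013 in RPS23. For the fusion against EV they ran from -0.22 to 0.13 in FAU, -0.085 to 0.13 in RPS10, -0.11 to 0.18 in RPS14, -0.79 to 0.11 in RPS18, -0.13 to 0.54 in RPS19 and -0.24 to 0.35 in RPS26. They ran from -0.15 to 0.17 in RPS27A, -0.19 to 0.010 in RPS29, -0.12 to 0.10 in RPS3, -0.088 to 0.27 in RPS3A and -0.067 to 0.20 in RPS6. Between the constructs they ran from -0.024 to 0.38 in FAU, -0.17 to 0.67 in RPS19, -0.20 to 0.42 in RPS26, -0.42 to 0.80 in RPS27, -0.071 to 0.48 in RPS24 and -0.013 to 0.43 in RPS13. The SE of MXD3 against EV fell from 0.46 to 0.083 in RPS27 and from 0.34 to 0.19 in RPS19 with the replicate block, and was 0.47 and 0.48 in RPS18, which had 27 to 69 counts per library.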
